A study of Mus musculus with 18 samples.

Results

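Hearts infarcted 3 days earlier in mice that carried AAV-FGF17 were compared with sham-operated hearts of mice that carried a control vector. The comparison rests on 8 of the 18 libraries of the series, 4 per group, chosen by their column names in the deposited expression table. All 12988 genes of that table belong to it, and 12052 of them passed the filter on low values and were tested. Every mouse had been injected subcutaneously as a newborn with a serotype 9 adeno-associated virus (AAV). In the infarct group this vector carried mouse Fgf17, and in the sham group it was the control vector. At 8 weeks of age the left anterior descending coronary artery was tied off for good in the infarct group, whereas the sham operation left it open. Vector and infarction therefore differ together between the groups and cannot be told apart in this comparison, since no sham group with AAV-FGF17 is among the samples. A further 4 hearts, taken 3 days after ligation from mice with the control vector, show where the infarct groups differ. In the labels these hearts differ from the AAV-FGF17 infarcts only by the vector. Other differences between the infarct groups were not tested. The promoter that drives Fgf17 in the vector, the day on which sham hearts were taken and whether each library is a separate animal are not given in the sources used here. The p-values thus measure the spread between libraries, part of which may be technical.

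Fibroblast growth factors are secreted ligands of receptor tyrosine kinases, and FGF17 is a close relative of FGF8 and FGF18. Active receptors drive the ERK kinase cascade, which switches on its own brakes, the Sprouty proteins and dual-specificity phosphatases. When a coronary artery is closed, the muscle it feeds dies. Neutrophils and then monocytes enter, monocytes become macrophages that clear the debris, fibroblasts divide and lay down a collagen scar, and the surviving cardiomyocytes turn away from fatty acid oxidation. All measurements are transcript levels in heart tissue, so a change in the number of cells of a type and a change in RNA per cell cannot be told apart.

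Levels are FPKM, fragments scaled to transcript length and library size, which can be compared between genes because length is divided out. The libraries correlated within groups at Pearson's r of 0.978 to 0.984 across genes in AAV-FGF17 infarcts and 0.983 to 0.986 in sham hearts. Depth is unknown because the files give no counts. Transcripts of the 13 mitochondrially encoded genes made up 27.9 to 30.7% of all FPKM in AAV-FGF17 infarcts and 35.6 to 41.7% in sham hearts. Among the control-vector infarcts library 4 stood apart: this share was 18.8% there and 28.15 to 28.4% in the other 3, and its correlation with them was 0.968 to 0.975. When this large share shrinks, all other FPKM values go up by construction. Changes are differences of group means on the log2(FPKM + 0.5) scale, infarct minus sham, with the standard error of a limma model, and a gene was called at an adjusted p under 0.05. On this scale the change of genes with low FPKM is understated.

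Widespread differences separated AAV-FGF17 infarcts from sham hearts. Of 12052 genes, 5197 were called higher (43.1%) and 1579 were called lower (13.1%) in the infarcts. The rises were also larger: 1586 genes rose and 128 fell by more than 1 on the log2 scale, and 108 rose but 1 fell by more than 3. The median change over all tested genes was 0.23. This imbalance depended on the scaling: with median-of-ratios scaling the median change was -0.0076 and the calls were 3414 higher and 3305 lower, so that 50.8% of calls were higher, against 76.7% with FPKM as deposited. Of the genes called with FPKM as deposited, 154 had the opposite sign under median-of-ratios scaling, and 0 were called in opposite directions under both. The counts of the gene lists stand against these shares of 43.1% and 13.1%, and a list near them does not stand apart from all genes.

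**Figure D1:**
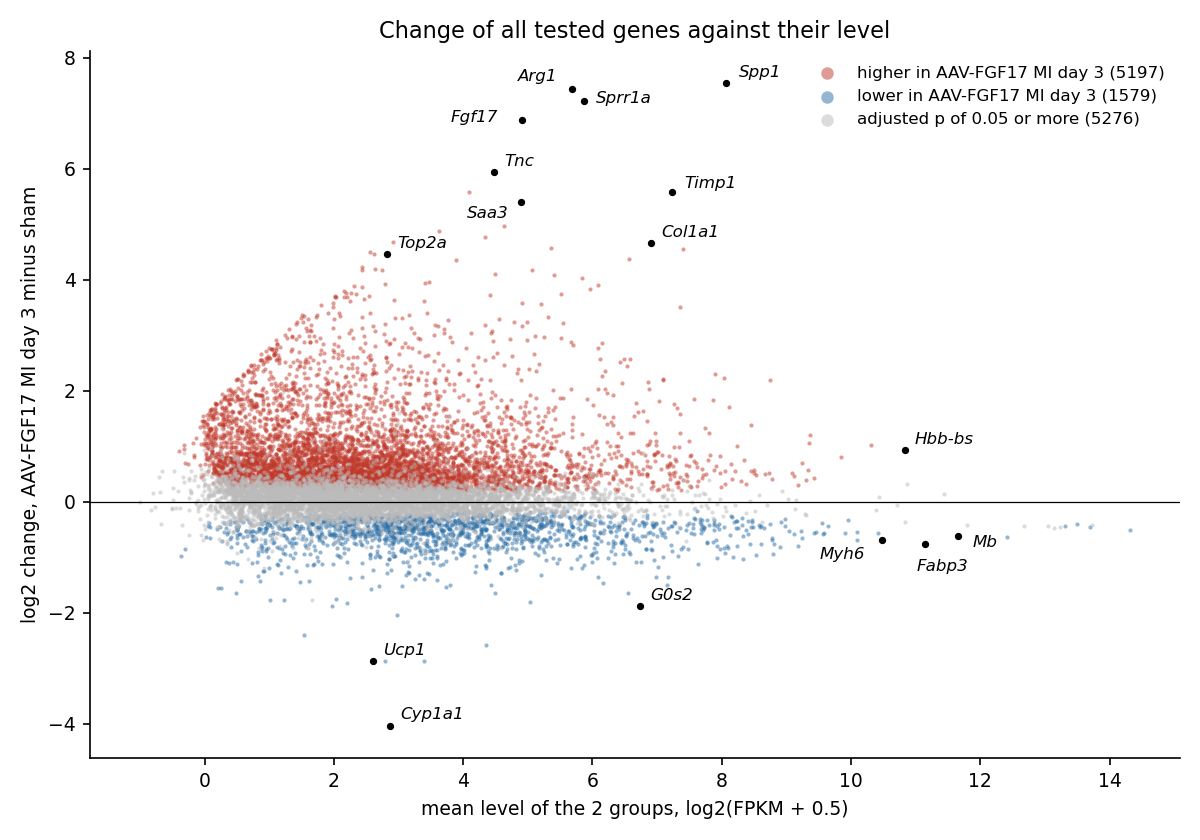
Log2 change of 12052 tested genes, AAV-FGF17 MI day 3 minus sham (vertical axis), against the mean level of the 2 groups on the log2(FPKM + 0.5) scale (horizontal axis). Each point is a gene, red for 5197 called higher, blue for 1579 called lower and grey for the others; the named rises reach above 7 (Spp1, Arg1 and Sprr1a), and the fall of Cyp1a1 passes -4.

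Fgf17 itself was checked first. The table places the gene at chr14:70636203-70642268 of GRCm38. Its level was 47.00, 75.6, 58.6 and 54.3 FPKM in the 4 AAV-FGF17 infarcts, and it was listed at 0 in all 4 sham hearts. In infarcts with the control vector it was 0.065, 0.0814, 0.38 and 0 FPKM. The AAV-FGF17 libraries thus stood apart from every other day 3 and sham library (exact two-sided permutation test against sham, p = 0.0286, the smallest that 4 against 4 libraries allow). Reads of the vector and of the native gene are not separated in this table.

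Most other members of the FGF family were lower or not called. Of 14 tested ligands, receptors and binding proteins, Fgf17 and Fgfr1 were called higher, and 5 ligand genes (Fgf1, Fgf9, Fgf13, Fgf16 and Fgf18) were called lower. Fgf1 and Fgf13 lost the call after rescaling to a common total (adjusted p = 0.09 and 0.104), and 3 ligands were called lower without AAV-FGF17 library 2 or without sham library 2, 4 or 5, against 4 or 5 without any of the others. Fgfr1, a receptor carried by fibroblasts among other cells, reached 6.998, 6.38, 6.45 and 7.28 FPKM in AAV-FGF17 infarcts, against 3.74, 3.69, 3.93 and 4.11 FPKM in sham hearts (log2 change 0.74 ± 0.12 (SE), adjusted p = 5.06e-05). Fgf16, a ligand made by heart muscle, was at 4.42, 4.74, 5.33 and 6.11 FPKM in AAV-FGF17 infarcts and 6.97, 8.63, 10.8 and 9.196 FPKM in sham hearts (log2 change -0.73 ± 0.16 (SE), adjusted p = 9.21e-04). In neither gene did the groups overlap.

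Most feedback and target genes of the ERK pathway rose. Of 20 tested members 15 were called higher and 0 lower, with a median change of 0.72. Over all genes 43.1% were higher and 13.1% lower, with a median of 0.23. Under median-of-ratios scaling 13 members were called higher and 1 lower. Of the 20, 3 were too low in sham hearts to pass the filter there, so the count is a description. Dusp6, a phosphatase that switches ERK off, was at 16.3, 19.6, 18.3 and 20.6 FPKM in AAV-FGF17 infarcts and 8.203, 7.17, 13.2 and 7.41 FPKM in sham hearts (log2 change 1.05 ± 0.16 (SE), adjusted p = 2.34e-05). The groups did not overlap, although 1 sham heart lay well above the other 3. Spry4, a Sprouty inhibitor of receptor signalling, had 5.28, 4.96, 6.56 and 6.42 FPKM in AAV-FGF17 infarcts and 3.45, 2.64, 4.21 and 3.57 FPKM in sham hearts (log2 change 0.68 ± 0.13 (SE), adjusted p = 2.02e-04). The transcription factor gene Etv5, a target of FGF signalling, had 6.48, 5.37, 5.42 and 6.25 FPKM in AAV-FGF17 infarcts and 3.43, 3.63, 3.42 and 3.503 FPKM in sham hearts (log2 change 0.67 ± 0.10 (SE), adjusted p = 2.92e-05). Myc, an early growth response gene with many inputs, showed the smallest p of the list, at 5.87, 9.02, 5.36 and 7.67 FPKM in AAV-FGF17 infarcts and 1.29, 1.04, 1.43 and 1.81 FPKM in sham hearts (log2 change 1.97 ± 0.15 (SE), adjusted p = 6.10e-09). Levels with the control vector overlapped these: infarcts with the control vector had 20.2, 16.9, 19.4 and 21.2 FPKM of Dusp6, 4.79, 4.84, 5.84 and 4.11 FPKM of Spry4 and 6.81, 6.06, 6.36 and 6.23 FPKM of Etv5. Against control-vector infarcts, 0 of the 20 members were called in either direction by limma, with a median difference of 0.07; over all genes 28 were called in that comparison and 1029 had an unadjusted p under 0.05.

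The largest rises were in genes of macrophages, matrix and injured muscle. Spp1, which encodes osteopontin, a matrix and signalling protein of macrophages (chr5:104435118-104441050), was at 592, 510, 483 and 554 FPKM in AAV-FGF17 infarcts and 2.01, 4.08, 1.78 and 2.05 FPKM in sham hearts (log2 change 7.54 ± 0.24 (SE), adjusted p = 6.37e-13). It was also among the 6 largest gains in FPKM of all nuclear genes. Arg1, the arginase of tissue-repairing macrophages (chr10:24915221-24927484), was at 103, 82.8, 79.8 and 142 FPKM in AAV-FGF17 infarcts and 0.237, 0.0583, 0.0511 and 0 FPKM in sham hearts (log2 change 7.42 ± 0.38 (SE), adjusted p = 6.15e-11). Sprr1a, a small proline-rich protein induced in stressed cardiomyocytes (chr3:92483952-92485895), had 132, 123, 119 and 87.2 FPKM in AAV-FGF17 infarcts and 0.936, 0.49, 0 and 0 FPKM in sham hearts (log2 change 7.21 ± 0.33 (SE), adjusted p = 1.95e-11). In each of these genes the lowest infarct library stood far above the highest sham library, and the choice of the largest changes required groups without overlap. Tnc, the matrix protein tenascin C of wounded tissue, had 49.5, 36.02, 43.03 and 43.9 FPKM in AAV-FGF17 infarcts and 0.24, 0.27, 0.132 and 0.194 FPKM in sham hearts (log2 change 5.94 ± 0.14 (SE), adjusted p = 2.71e-14). Timp1, an inhibitor of matrix metalloproteinases, had 260.4, 398, 235 and 284 FPKM in AAV-FGF17 infarcts and 7.36, 4.76, 4.95 and 5.35 FPKM in sham hearts (log2 change 5.58 ± 0.23 (SE), adjusted p = 4.17e-12). For Cthrc1, a secreted protein of scar fibroblasts, levels were 41.2, 37.4, 28.8 and 24.6 FPKM in AAV-FGF17 infarcts and 0.518, 0.101, 0.122 and 0.0789 FPKM in sham hearts (log2 change 5.58 ± 0.19 (SE), adjusted p = 1.50e-12). Saa3, an acute-phase serum amyloid, was uneven, at 24.8, 168, 24.6 and 15.8 FPKM in AAV-FGF17 infarcts and 0.363, 0.598, 0.24 and 0.273 FPKM in sham hearts (log2 change 5.41 ± 0.55 (SE), adjusted p = 2.46e-07). Its second infarct library stood well above the other 3, which still lay above all sham hearts. Arg1, Sprr1a, Tnc, Cthrc1 and Saa3 were under 1 FPKM in every sham heart and could pass the filter only through infarct libraries. Their p-values thus add no support to the levels given. The replication-dependent histone genes Hist1h2ap and Hist1h2ao rose by 4.97 and 4.76 on the log2 scale; near-identical copies share their reads, so the values of single histone genes are uncertain.

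The largest falls were smaller and lay in genes of metabolism, fat and ion channels. Cyp1a1, a cytochrome P450 induced through the aryl hydrocarbon receptor (chr9:57687928-57703824), was at 0.237, 0.271, 0.504 and 0.28 FPKM in AAV-FGF17 infarcts and 10.8, 12.9, 19.5 and 10.03 FPKM in sham hearts (log2 change -4.03 ± 0.38 (SE), adjusted p = 8.96e-08). G0s2, an inhibitor of triglyceride breakdown, had 37.9, 53.9, 51.6 and 34.00 FPKM in AAV-FGF17 infarcts and 142, 108, 197 and 226 FPKM in sham hearts (log2 change -1.88 ± 0.20 (SE), adjusted p = 4.55e-07). The groups did not overlap in these genes, as the choice of the largest changes required. Scn4b, an auxiliary ion channel subunit, had 1.398, 1.61, 1.43 and 1.66 FPKM in AAV-FGF17 infarcts and 6.39, 5.98, 6.62 and 7.58 FPKM in sham hearts (log2 change -1.82 ± 0.24 (SE), adjusted p = 6.60e-06). Inmt, a methyltransferase of indole amines, and Retnla, a secreted protein of some tissue macrophages, both fell by 2.87. Scd4, a fatty acid desaturase, Meig1, a gene known for its role in sperm formation, and Acot1, an acyl-CoA thioesterase with a near-identical neighbour, fell by between 1.76 and 2.04. Ucp1, the uncoupling protein of brown fat, had 0.0719, 3.65, 0.819 and 0.332 FPKM in AAV-FGF17 infarcts and 8.52, 3.898, 16.6 and 10.6 FPKM in sham hearts (log2 change -2.87 ± 0.53 (SE), adjusted p = 2.04e-04), and the groups were close at their nearest libraries.

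**Figure D2:**
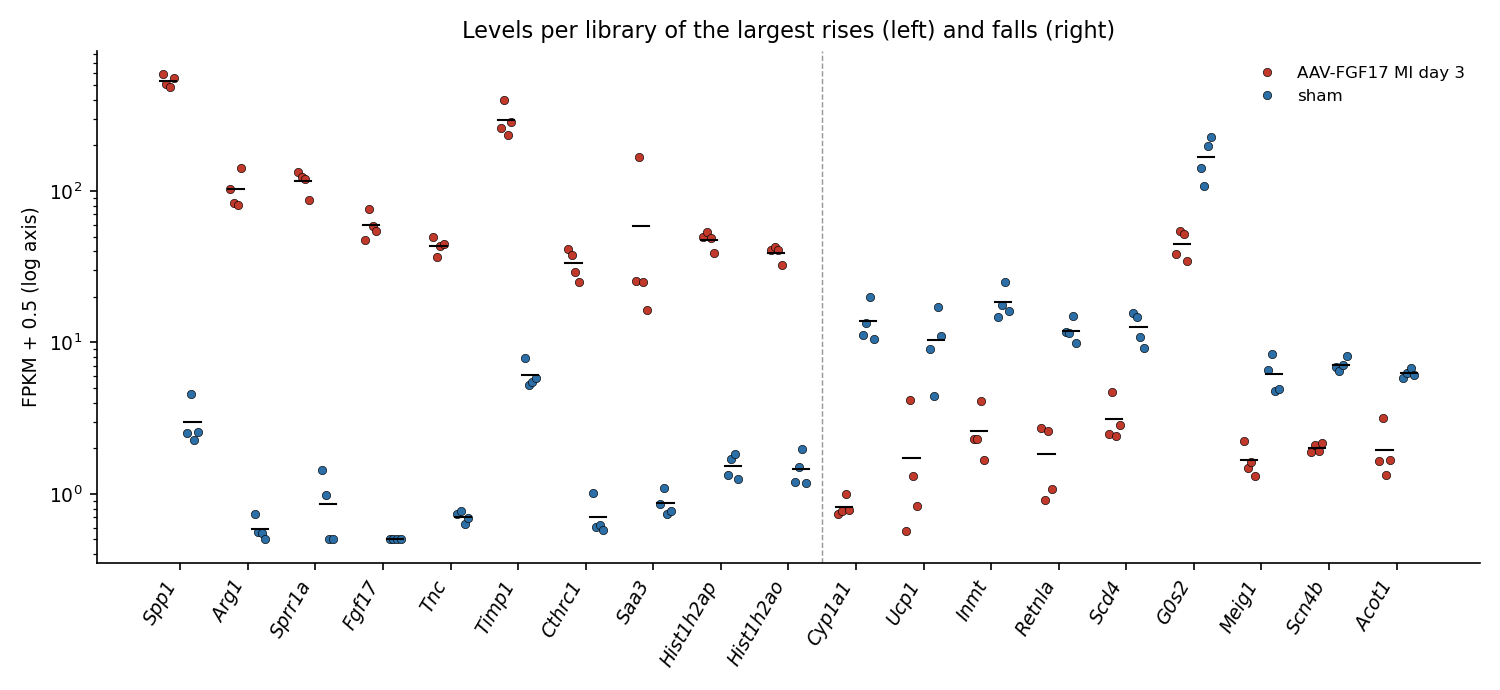
FPKM + 0.5 per library on a log axis for the 10 genes with the largest rises (left of the dashed line) and 9 of those with the largest falls (right), AAV-FGF17 MI day 3 in red beside sham in blue; bars mark group means. No red and blue points of a gene overlap, which the choice of these genes required, and Saa3 has 1 infarct library far above the other 3.

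Genes of dividing cells rose together. All 31 tested genes of mitosis and cytokinesis were called higher, with a median change of 3.24, and all 27 tested genes of DNA replication were called higher, with a median of 2.103. All 31 mitosis genes and 20 of the 27 replication genes did not reach 1 FPKM in 3 sham libraries, so they could pass the filter on low values only through infarct libraries, and these counts describe the lists and support nothing. The summed level of the mitosis genes took 0.0552 to 0.0671% of all FPKM in AAV-FGF17 infarcts and 0.00122 to 0.00151% in sham hearts. Ccna2, the cyclin of S phase and early mitosis (chr3:36564865-36572150), was at 15.7, 13.2, 13.2 and 14.3 FPKM in AAV-FGF17 infarcts and 0.0624, 0.0324, 0.0971 and 0.0709 FPKM in sham hearts (log2 change 4.68 ± 0.14 (SE), adjusted p = 3.02e-13). Mki67, the proliferation antigen found in all active phases of the cycle, was at 13.01, 8.81, 12.4 and 11.2 FPKM in AAV-FGF17 infarcts and 0.144, 0.218, 0.089 and 0.137 FPKM in sham hearts (log2 change 4.18 ± 0.14 (SE), adjusted p = 1.50e-12). Aurkb, the kinase of the chromosomal passenger complex, had 3.86, 3.45, 3.71 and 3.85 FPKM in AAV-FGF17 infarcts and 0, 0.0715, 0 and 0.0417 FPKM in sham hearts (log2 change 3.00 ± 0.15 (SE), adjusted p = 4.45e-11). These 3 transcripts were close to 0 in every sham heart and well above it in every infarct. They could pass the filter only through infarct libraries, so their p-values add no support to the levels given.

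The cyclin Ccnb1, which drives entry into mitosis, reached 4.57, 4.07, 5.198 and 5.01 FPKM in AAV-FGF17 infarcts, against 0.0331, 0.0311, 0.151 and 0 FPKM in sham hearts (log2 change 3.24 ± 0.17 (SE), adjusted p = 7.35e-11). Among replication genes, Rrm2, a subunit of ribonucleotide reductase, had 14.8, 11.9, 13.2 and 14.4 FPKM in AAV-FGF17 infarcts and 0.817, 0.761, 0.488 and 0.473 FPKM in sham hearts (log2 change 3.64 ± 0.14 (SE), adjusted p = 2.26e-12). Mcm5, a subunit of the replicative helicase, had 6.71, 6.67, 5.85 and 7.22 FPKM in AAV-FGF17 infarcts and 0.367, 0.449, 0.25 and 0.188 FPKM in sham hearts (log2 change 3.14 ± 0.14 (SE), adjusted p = 1.77e-11). Uhrf1, which carries DNA methylation through replication, rose by 3.68. Ccnb1, Rrm2 and Mcm5 were under 1 FPKM in every sham heart as well, and their p-values have the same limit. The level of these transcripts does not say which cells divide. Control-vector infarcts had 13.2, 15.4, 13.6 and 15.6 FPKM of Ccna2 and 11.4, 13.7, 11.2 and 11.2 FPKM of Mki67, and 0 of the 31 mitosis and 0 of the 27 replication genes were called between the vectors.

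The promoters of the mitosis genes are shown because these genes moved together and share letters before their start. In late cell cycle genes a cell cycle homology region, TTTGAA, and CCAAT boxes are known as elements for repression in quiescent cells and for activation in G2. In the RefSeq promoter table of GRCm38.p6, 27 of the 31 genes had an entry, with 29 promoters. Within the 250 bases before the start and on either strand, TTTGAA stood in 11 of the 29 promoters (37.9%), against 10.9% of 11984 promoters of tested genes. CCAAT stood in 25 of the 29 (86.2%), against 35.1% of all. Of the 28 promoters of replication genes, 3 held TTTGAA (10.7%) and 15 held CCAAT (53.6%). A match is a description of the sequence and not evidence of binding. Of the mitosis genes that hold both motifs, 4 with large rises follow. They run 5′ to 3′ on the strand of the gene, with TTTGAA and CCAAT of either strand in capitals.
Top2a, chr11:99024193-99024302, minus strand: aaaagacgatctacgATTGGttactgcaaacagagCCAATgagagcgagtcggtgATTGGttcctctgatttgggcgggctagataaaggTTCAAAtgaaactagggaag
Mki67, chr7:135716465-135716574, minus strand: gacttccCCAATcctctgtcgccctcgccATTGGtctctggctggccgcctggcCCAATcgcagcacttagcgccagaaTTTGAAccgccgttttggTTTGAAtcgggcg
Ccnb2, chr9:70421625-70421734, minus strand: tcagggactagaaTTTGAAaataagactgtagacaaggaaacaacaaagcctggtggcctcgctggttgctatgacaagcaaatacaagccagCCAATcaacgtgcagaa
Ube2c, chr2:164769818-164769927, plus strand: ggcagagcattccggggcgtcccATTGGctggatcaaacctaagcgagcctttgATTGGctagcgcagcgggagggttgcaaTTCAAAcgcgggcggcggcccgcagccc

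Scar matrix genes rose too. Of 22 tested collagen genes 18 were called higher and 0 lower, with a median change of 1.97. With median-of-ratios scaling the counts were 18 and 1. Of the 22, 5 were too low in sham hearts to pass the filter there, so the count is a description. Col1a1, a chain of the main fibrillar collagen of scars, was at 248, 265, 208 and 198 FPKM in AAV-FGF17 infarcts and 8.20, 6.99, 9.56 and 9.86 FPKM in sham hearts (log2 change 4.66 ± 0.18 (SE), adjusted p = 2.81e-12). Col3a1, the fibrillar collagen of early scars, was at 332, 399, 272 and 292 FPKM in AAV-FGF17 infarcts and 10.9, 10.6, 16.6 and 15.6 FPKM in sham hearts (log2 change 4.55 ± 0.18 (SE), adjusted p = 2.73e-12). Both genes were separated from sham in every library. The summed collagen level was 0.324 to 0.397% of all FPKM in AAV-FGF17 infarcts, 0.364 to 0.542% in control-vector infarcts and 0.0477 to 0.0567% in sham hearts. Of 41 other matrix and protease genes 32 were called higher and 1 lower, with a median of 1.92. Among the 41, 8 did not pass the filter in sham hearts, so this count too is a description. Postn, or periostin, which activated fibroblasts secrete, had 131, 82.8, 123 and 93.3 FPKM in AAV-FGF17 infarcts and 7.98, 5.98, 4.496 and 5.93 FPKM in sham hearts (log2 change 4.03 ± 0.24 (SE), adjusted p = 4.37e-10). The gene called lower was Timp3, an inhibitor of metalloproteinases, at 53.4, 44.3, 64.4 and 51.3 FPKM in AAV-FGF17 infarcts and 65.6, 80.3, 58.00 and 73.8 FPKM in sham hearts (log2 change -0.38 ± 0.13 (SE), adjusted p = 0.0179); its libraries overlapped, and the call was lost without AAV-FGF17 library 2 (adjusted p = 0.0685), without sham library 2 (0.0657) and after rescaling to a common total (0.0556).

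Transforming growth factor beta is the main signal that turns fibroblasts into matrix-making cells. Of 18 tested genes of its pathway 13 were called higher and 1 lower, with a median of 0.90; under median-of-ratios scaling 11 were higher and 3 lower. The ligand Tgfb1 was at 10.2, 10.1, 10.2 and 11.2 FPKM in AAV-FGF17 infarcts and 3.804, 5.04, 4.12 and 3.99 FPKM in sham hearts (log2 change 1.21 ± 0.09 (SE), adjusted p = 4.45e-09). Bambi, a decoy receptor of the pathway, was called lower, at 2.77, 3.44, 3.34 and 2.79 FPKM in AAV-FGF17 infarcts and 5.34, 3.51, 5.16 and 3.89 FPKM in sham hearts (log2 change -0.46 ± 0.15 (SE), adjusted p = 0.0177), but lost the call without AAV-FGF17 library 1 (adjusted p = 0.0502), sham library 1 (0.0635) or sham library 4 (0.0583), and after rescaling to a common total (0.0521).

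Markers of activated fibroblasts rose, and those of fibroblast identity were mixed. All 8 tested markers of activated fibroblasts were called higher, with a median of 1.68. Of these, 2 were too low in sham hearts to pass the filter there, so their count is a description. Of 8 markers of fibroblast identity 4 were higher and 2 lower, against 43.1% and 13.1% of all genes. Vim, the intermediate filament vimentin, was at 188, 186, 195 and 185 FPKM in AAV-FGF17 infarcts and 48.5, 43.05, 44.1 and 47.1 FPKM in sham hearts (log2 change 2.03 ± 0.11 (SE), adjusted p = 1.54e-10). Acta2, the smooth muscle actin of myofibroblasts and arteries, was at 200.4, 191, 169 and 159 FPKM in AAV-FGF17 infarcts and 93.5, 103, 123 and 132 FPKM in sham hearts (log2 change 0.68 ± 0.14 (SE), adjusted p = 5.45e-04). Pdgfra, a receptor that marks fibroblasts, averaged 12.2 ± 1.93 FPKM in AAV-FGF17 infarcts and 6.79 ± 0.605 FPKM in sham hearts (SD over 4 libraries each), and was called higher (log2 change 0.79 ± 0.11 (SE), adjusted p = 1.67e-05). Gsn and Dpep1, also used as markers of resting fibroblasts but not unique to them, fell by 0.79 and 0.47. Mfap5, a microfibril protein, was at 40.96, 25.1, 29.7 and 23.7 FPKM in AAV-FGF17 infarcts and 5.68, 7.94, 6.01 and 6.29 FPKM in sham hearts. Of 10 genes of the insulin-like growth factor axis 5 were called higher and 1 lower, near the shares of all genes: Igfbp7, a binding protein of vessels and fibroblasts, had 248, 254, 255 and 222 FPKM in AAV-FGF17 infarcts and 92.9, 75.3, 73.3 and 86.2 FPKM in sham hearts (log2 change 1.58 ± 0.14 (SE), adjusted p = 3.06e-08), and Igfbp6 fell by 0.79.

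Macrophage genes rose. All 12 tested markers of recruited monocytes and macrophages were called higher, with a median of 2.79, and so were all 9 pan-macrophage markers, with a median of 2.33. Of the 12 recruited-cell markers 6 were too low in sham hearts to pass the filter there, so their count is a description. Lyz2, the lysozyme of macrophages and neutrophils, was at 710.1, 774, 716 and 614 FPKM in AAV-FGF17 infarcts and 148, 146, 152 and 165 FPKM in sham hearts (log2 change 2.19 ± 0.12 (SE), adjusted p = 2.35e-10). Ccr2, the chemokine receptor of blood monocytes, was at 9.61, 6.95, 15.9 and 9.399 FPKM in AAV-FGF17 infarcts and 0.916, 0.963, 0.988 and 1.12 FPKM in sham hearts (log2 change 2.81 ± 0.27 (SE), adjusted p = 1.14e-07). The levels of both separated the groups completely. Ccr2 did not reach 1 FPKM in 3 sham libraries, so its p-value adds no support to its levels. Resident macrophage markers were mixed, with 5 of 7 called higher and 1 lower. Timd4, a phagocytic receptor confined in the mouse heart mostly to long-lived resident macrophages, was at 1.41, 1.97, 1.21 and 1.11 FPKM in AAV-FGF17 infarcts and 2.44, 2.38, 1.96 and 2.01 FPKM in sham hearts (log2 change -0.50 ± 0.18 (SE), adjusted p = 0.0261). The libraries overlapped by a narrow margin, and leaving out AAV-FGF17 library 3 or 4, or sham library 1 or 2, raised the adjusted p to between 0.0608 and 0.0806. Mrc1, the mannose receptor of resident and repair macrophages, rose by 1.97. The summed markers of recruited cells were 0.0858 to 0.113% of all FPKM in AAV-FGF17 infarcts, 0.107 to 0.146% in control-vector infarcts and 0.00926 to 0.0118% in sham hearts.

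Neutrophil transcripts rose but varied between infarcts. Of 12 tested markers 10 were called higher and 0 lower, with a median of 3.01; 9 of the 12 were too low in sham hearts to pass the filter there. S100a8, a calcium-binding protein stored in neutrophils, was at 55.5, 110.3, 32.6 and 142 FPKM in AAV-FGF17 infarcts and 6.18, 3.38, 2.78 and 10.2 FPKM in sham hearts (log2 change 3.75 ± 0.42 (SE), adjusted p = 7.58e-07). Mmp8, the collagenase of neutrophils, had 4.52, 5.21, 2.72 and 5.12 FPKM in AAV-FGF17 infarcts and 0.173, 0, 0.0466 and 0.222 FPKM in sham hearts (log2 change 2.98 ± 0.25 (SE), adjusted p = 2.33e-08). It was among the markers too low in sham hearts, so its p-value adds no support to its levels. Libraries 2 and 4 of the infarcts held more S100a8 than libraries 1 and 3, and the summed markers were 0.0545, 0.114, 0.0286 and 0.135% of all FPKM in AAV-FGF17 infarcts 1 to 4, against 0.00241 to 0.00967% in sham hearts.

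Cytokine genes followed. Of 26 tested cytokines and chemokines 23 were called higher and 0 lower, with a median of 2.09; 12 of the 26 were too low in sham hearts to pass the filter there. Cxcl5, a neutrophil attractant, was at 18.9, 51.2, 14.8 and 25.97 FPKM in AAV-FGF17 infarcts and 1.16, 0.564, 0.409 and 0.933 FPKM in sham hearts (log2 change 4.36 ± 0.32 (SE), adjusted p = 4.88e-09). Il6, a cytokine of the acute phase, had 2.52, 10.1, 2.52 and 4.55 FPKM in AAV-FGF17 infarcts and 0.0568, 0.108, 0 and 0 FPKM in sham hearts (log2 change 3.12 ± 0.30 (SE), adjusted p = 1.43e-07). Il1b, the inflammasome cytokine, had 6.75, 26.9, 4.37 and 14.7 FPKM in AAV-FGF17 infarcts and 1.59, 0.706, 0.594 and 1.08 FPKM in sham hearts (log2 change 2.93 ± 0.39 (SE), adjusted p = 6.58e-06). In all 3, and in Saa3, infarct library 2 was the highest, as it was for the summed list, with 0.251% of all FPKM against 0.162 to 0.183% in the other AAV-FGF17 infarcts and 0.0361 to 0.0387% in sham hearts. The calls stayed without that library, and its part in their size was not tested. Ccl2, the ligand of Ccr2, was at 43.01, 76.3, 43.5 and 58.7 FPKM in AAV-FGF17 infarcts and 7.49, 4.94, 7.28 and 7.37 FPKM in sham hearts (log2 change 2.92 ± 0.19 (SE), adjusted p = 1.36e-09). The inducible cyclooxygenase Ptgs2, in contrast, was even across infarcts, at 4.68, 5.08, 4.96 and 5.09 FPKM, against 0.758, 1.05, 1.01 and 0.898 FPKM in sham hearts (log2 change 1.94 ± 0.12 (SE), adjusted p = 6.56e-10). Cxcl5, Il6, Il1b and Ptgs2 did not reach 1 FPKM in 3 sham libraries, so their p-values add no support to their levels. AP-1 sites, TGANTCA, stood in 5 of 22 promoters of these genes (22.7%) and in 2 of 30 promoters of the matrix and protease genes (6.67%), against 4.66% of all promoters.

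Genes for engulfing and presenting followed the macrophages. All 20 lysosomal genes were called higher, with a median of 1.45, and 12 of 15 complement genes were called higher, with a median of 1.02. Ctss, a cathepsin that prepares antigens, was at 307, 344, 274 and 278 FPKM in AAV-FGF17 infarcts and 26.8, 25.7, 25.5 and 26.1 FPKM in sham hearts (log2 change 3.50 ± 0.13 (SE), adjusted p = 1.75e-12). Cfp, the properdin of the alternative complement pathway, was at 29.1, 32.6, 30.1 and 29.7 FPKM in AAV-FGF17 infarcts and 2.43, 3.97, 3.17 and 3.57 FPKM in sham hearts (log2 change 3.04 ± 0.14 (SE), adjusted p = 1.78e-11). Both were far above sham in each library. C3, the central complement protein, had 52.5, 88.3, 64.3 and 46.6 FPKM in AAV-FGF17 infarcts and 29.6, 43.5, 39.5 and 37.9 FPKM in sham hearts (log2 change 0.70 ± 0.20 (SE), adjusted p = 0.00599; adjusted p = 0.0649 under median-of-ratios scaling). All 7 genes of class II antigen presentation were called higher, with a median of 1.27. Cd74, the invariant chain, was at 148, 119, 84.9 and 108 FPKM in AAV-FGF17 infarcts and 58.5, 46.1, 82.8 and 83.5 FPKM in sham hearts (log2 change 0.77 ± 0.24 (SE), adjusted p = 0.0122; adjusted p = 0.0797 under median-of-ratios scaling). Of 10 class I presentation genes 7 were called higher, with a median of 0.49, and 3 under median-of-ratios scaling; Psmb8, a subunit of the immunoproteasome, rose by 0.94.

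Lymphocyte transcripts were scarce. The 4 T cell, 2 B cell and 3 natural killer cell markers that were tested were all too low in sham hearts to pass the filter there. A higher level in infarcts was thus set by the filter. No count or test is given for them, and the levels are a description. Il7r, the interleukin 7 receptor of T cells, had 2.29, 1.79, 1.56 and 1.103 FPKM in AAV-FGF17 infarcts and 0.21, 0.268, 0.152 and 0.188 FPKM in sham hearts. Cd79b, part of the B cell receptor, had 1.91, 2.71, 1.65 and 0.702 FPKM in AAV-FGF17 infarcts and 0.682, 0.185, 0.383 and 0.648 FPKM in sham hearts. Nkg7, a granule protein of cytotoxic cells, was higher by 1.98 on the log2 scale, under the same limit.

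Injury genes of cardiomyocytes gave a divided picture. Of 19 tested cardiomyocyte stress genes 10 were called higher and 1 lower, with a median of 0.44, against 43.1% higher and 13.1% lower of all genes; under median-of-ratios scaling 8 were higher and 2 lower, with a median of 0.16. The natriuretic peptide gene Nppa, a marker of wall stress, was at 2411, 1781, 2134 and 1935 FPKM in AAV-FGF17 infarcts and 2011, 1679, 1264 and 1672 FPKM in sham hearts (adjusted p = 0.0955). Nppb, the gene of brain natriuretic peptide, was at 585, 577, 583 and 540.1 FPKM in AAV-FGF17 infarcts and 597, 399.9, 595 and 668 FPKM in sham hearts (adjusted p = 0.887). Ankrd1, a stretch-responsive protein of the sarcomere, was at 1455, 1539, 1331 and 1322 FPKM in AAV-FGF17 infarcts and 1535, 1315, 1063 and 1439 FPKM in sham hearts (adjusted p = 0.554). In each of these 3 genes the groups overlapped and the sham hearts were already high. For Nppa the call depended on the setting, with an adjusted p of 0.0442 after rescaling to a common total and 0.0428 without sham library 1. Myh7, the slow myosin that is known to rise in failing mouse hearts, was called lower, at 72.3, 94.02, 40.03 and 59.1 FPKM in AAV-FGF17 infarcts and 153, 123, 94.1 and 114 FPKM in sham hearts (log2 change -0.91 ± 0.32 (SE), adjusted p = 0.023). Its libraries did not overlap by a narrow margin, and the call was lost without AAV-FGF17 library 3 (adjusted p = 0.0864) or sham library 1 (0.0685). Of 7 atrial markers 4 were called lower and 0 higher, with a median of -0.65, and Stard10 fell by 0.94. Nppa is on that list too, and the part of atrial tissue in the natriuretic values was not tested.

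Contractile genes fell by modest amounts. Of 23 tested sarcomere genes 0 were called higher and 13 lower, with a median of -0.43; under median-of-ratios scaling 21 were lower. Myh6, the fast myosin of the adult mouse heart (chr14:54941921-54966927), was at 1196, 906, 1082 and 1177 FPKM in AAV-FGF17 infarcts and 1502, 1697, 2004 and 1833 FPKM in sham hearts (log2 change -0.69 ± 0.14 (SE), adjusted p = 4.85e-04). Myl2, the ventricular light chain, was at 1122, 1064, 1267 and 961 FPKM in AAV-FGF17 infarcts and 1634, 1644, 1596 and 1610 FPKM in sham hearts (log2 change -0.56 ± 0.09 (SE), adjusted p = 6.61e-05). Mb, the oxygen store myoglobin, was the largest loss in FPKM of all nuclear genes, at 2434, 2502, 2858 and 2384 FPKM in AAV-FGF17 infarcts and 3989, 3758, 4145 and 3780 FPKM in sham hearts (log2 change -0.63 ± 0.09 (SE), adjusted p = 1.01e-05). These 3 genes lay below the sham range in every infarct. Macrophage, collagen and mitosis genes took larger shares of the FPKM in the same libraries, as given above, and their part in the falls of muscle genes was not tested. Ttn, the giant spring protein titin, was at 22.2, 16.01, 17.5 and 17.8 FPKM in AAV-FGF17 infarcts and 26.6, 22.8, 21.8 and 23.1 FPKM in sham hearts, and its p depended on the scaling (adjusted p = 0.0748 with FPKM as deposited, 0.00596 with median-of-ratios scaling). Of 29 calcium cycling and ion channel genes 15 were called lower and 0 higher, with a median of -0.32. Atp2a2, the calcium pump of the sarcoplasmic reticulum, was at 791, 754, 818 and 727 FPKM in AAV-FGF17 infarcts and 1025, 1163, 1159 and 1207 FPKM in sham hearts (log2 change -0.56 ± 0.09 (SE), adjusted p = 5.92e-05). Kcnip2, which shapes the transient outward potassium current, was at 9.99, 7.05, 13.9 and 10.4 FPKM in AAV-FGF17 infarcts and 25.4, 22.9, 28.02 and 23.4 FPKM in sham hearts (log2 change -1.26 ± 0.16 (SE), adjusted p = 2.51e-06). Kcnj11, the pore of the ATP-sensitive potassium channel, had 12.4, 12.8, 10.8 and 11.7 FPKM in AAV-FGF17 infarcts and 25.7, 24.4, 33.1 and 29.2 FPKM in sham hearts (log2 change -1.20 ± 0.14 (SE), adjusted p = 1.36e-06).

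Fatty acid genes fell nearly as one block. Of 30 tested genes of fatty acid uptake and oxidation 28 were called lower and 1 higher, with a median of -0.78, against 0.23 for all genes. Cpt1b, the muscle carnitine transferase that admits fatty acids to mitochondria, was at 63.6, 75.5, 63.4 and 54.2 FPKM in AAV-FGF17 infarcts and 114, 109, 114 and 125 FPKM in sham hearts (log2 change -0.85 ± 0.14 (SE), adjusted p = 5.18e-05). Fabp3, the heart fatty acid binding protein, was at 1561, 1878, 1666 and 1626 FPKM in AAV-FGF17 infarcts and 3048, 2806, 2853 and 2728 FPKM in sham hearts (log2 change -0.77 ± 0.09 (SE), adjusted p = 7.94e-07). Pnpla2, the first lipase of triglyceride breakdown, was at 39.2, 61.03, 39.5 and 41.9 FPKM in AAV-FGF17 infarcts and 131, 131, 157 and 143 FPKM in sham hearts (log2 change -1.64 ± 0.15 (SE), adjusted p = 5.70e-08). Each of them was below every sham heart. Cd36, the fatty acid transporter, had 317, 410.4, 310.4 and 295 FPKM in AAV-FGF17 infarcts and 589, 625, 481 and 559.7 FPKM in sham hearts (log2 change -0.76 ± 0.17 (SE), adjusted p = 8.14e-04). Etfa, which passes electrons from fatty acid dehydrogenases, had the smallest p of the list and fell by 0.84. The exception was Pdk4, the kinase that blocks pyruvate entry, at 255, 279, 129 and 267 FPKM in AAV-FGF17 infarcts and 90.1, 115, 96.5 and 78.9 FPKM in sham hearts (log2 change 1.24 ± 0.41 (SE), adjusted p = 0.0174). Infarct library 3 was close to the sham range, and the call was lost under median-of-ratios scaling (adjusted p = 0.0637). In control-vector infarcts Pdk4 ranged widely, at 66.8, 151, 300.3 and 44.6 FPKM.

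Respiratory genes fell with them. Of 25 genes of the citrate cycle and pyruvate entry 21 were called lower and 0 higher (median -0.47), of 37 nuclear genes of complex I 31 were lower (median -0.43), and of 24 nuclear genes of complexes III and IV 20 were lower (median -0.38). Cs, citrate synthase, had 135, 123, 133 and 143 FPKM in AAV-FGF17 infarcts and 156, 173, 182 and 186 FPKM in sham hearts (log2 change -0.38 ± 0.07 (SE), adjusted p = 3.11e-04). Ndufs1, the largest subunit of complex I, had 58.1, 56.8, 56.9 and 56.1 FPKM in AAV-FGF17 infarcts and 76.8, 80.8, 89.4 and 92.7 FPKM in sham hearts (log2 change -0.57 ± 0.09 (SE), adjusted p = 2.48e-05). These falls are small in size but the groups did not overlap. Cox7a1, the muscle isoform of a complex IV subunit, fell by 0.79. Slc25a4, the muscle ADP/ATP carrier of the inner membrane, was at 799, 900.1, 823 and 843 FPKM in AAV-FGF17 infarcts and 1354, 1217, 1450 and 1375 FPKM in sham hearts (log2 change -0.68 ± 0.08 (SE), adjusted p = 2.13e-06). Of the 13 mitochondrially encoded genes 5 were called lower, with a median of -0.44, and 12 under median-of-ratios scaling. Of 18 genes of branched-chain amino acid breakdown 13 were lower and 0 higher, with a median of -0.43, and Aldh6a1, the dehydrogenase of the valine branch, fell by 0.93.

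Regulators of mitochondria fell in part. Of 18 tested regulators 9 were called lower and 0 higher, with a median of -0.34. Perm1, a muscle coactivator of mitochondrial genes, was at 34.2, 38.5, 39.1 and 37.6 FPKM in AAV-FGF17 infarcts and 70.8, 74.1, 75.8 and 74.98 FPKM in sham hearts (log2 change -0.98 ± 0.11 (SE), adjusted p = 1.12e-06). Ppargc1a, the coactivator PGC-1 alpha and main inducer of mitochondrial biogenesis (chr5:51454250-51567726), was at 35.1, 48.5, 29.6 and 52.4 FPKM in AAV-FGF17 infarcts and 27.98, 53.8, 25.4 and 30.9 FPKM in sham hearts (adjusted p = 0.354), and these ranges overlapped. The element of the estrogen-related receptors, partners of this coactivator, was searched as TNAAGGTCA. It stood in 1 of 35 promoters of complex I genes, in 0 of 30 of fatty acid genes, 0 of 28 of citrate cycle genes and 0 of 16 of complex III and IV genes, and in 0.668% of all promoters. No match says only that these letters are not in the 250 bases before the start. The single match is shown with the element in capitals, 5′ to 3′ on the strand of the gene; Ndufb4 itself was not called.
Ndufb4, chr16:37654392-37654451, minus strand: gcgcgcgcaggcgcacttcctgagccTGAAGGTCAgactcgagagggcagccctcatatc

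Glucose genes did not move one way. Of 28 genes of glucose uptake and glycolysis 11 were called higher and 9 lower, with a median of 0.10 that turned to -0.18 under median-of-ratios scaling. Over all genes 43.1% were higher and 13.1% lower, so the count of higher members was near the share of all genes. Of the 28, 4 were too low in sham hearts to pass the filter there. Slc2a1, the glucose transporter of non-muscle and injured cells, was at 10.7, 11.8, 10.7 and 12.8 FPKM in AAV-FGF17 infarcts and 3.14, 3.42, 3.56 and 2.88 FPKM in sham hearts (log2 change 1.68 ± 0.11 (SE), adjusted p = 9.50e-10). Slc16a3, which exports lactate, was at 4.91, 5.59, 5.39 and 6.48 FPKM in AAV-FGF17 infarcts and 0.409, 0.311, 0.258 and 0.194 FPKM in sham hearts (log2 change 2.94 ± 0.13 (SE), adjusted p = 1.78e-11). Ldhb, the heart-type lactate dehydrogenase, was at 330.5, 357, 346 and 352 FPKM in AAV-FGF17 infarcts and 573, 590.5, 669.8 and 597 FPKM in sham hearts (log2 change -0.81 ± 0.10 (SE), adjusted p = 1.66e-06). Of these 3, the risen transcripts were under 4 FPKM in sham hearts, and the fallen one was abundant. Slc16a3 was under 1 FPKM in every sham heart and could pass the filter only through infarct libraries, so its p-value adds no support to its levels. Pygm, the muscle glycogen phosphorylase, Slc16a1, a monocarboxylate transporter, and Aldoa, the muscle aldolase, fell by 0.85, 0.72 and 0.37. Hk2, a hexokinase of muscle, had 48.9, 46.1, 45.5 and 56.8 FPKM in AAV-FGF17 infarcts and 56.6, 59.8, 61.4 and 61.9 FPKM in sham hearts (log2 change -0.28 ± 0.10 (SE), adjusted p = 0.0174; adjusted p = 0.134 after rescaling to a common total).

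Genes of hypoxia and of protein and oxidant stress did not move as single blocks. Of 12 hypoxia-inducible genes 3 were called higher and 6 lower: Slc2a1, Ankrd37 and the collagen hydroxylase P4ha1 rose by 1.68, 1.06 and 0.97, and Egln1, the oxygen sensor of the pathway, fell by 0.68. Of 19 antioxidant and metal genes 8 were higher, near the share of all genes, and 7 lower; under median-of-ratios scaling 5 were higher and 9 lower. Hmox1, the heme oxygenase that breaks down heme, was at 171, 218, 136 and 197 FPKM in AAV-FGF17 infarcts and 8.41, 10.7, 6.67 and 7.27 FPKM in sham hearts (log2 change 4.37 ± 0.18 (SE), adjusted p = 4.17e-12). Catalase, Cat, was at 59.8, 78.9, 68.5 and 67.97 FPKM in AAV-FGF17 infarcts and 147, 161, 129.9 and 147 FPKM in sham hearts (log2 change -1.08 ± 0.11 (SE), adjusted p = 1.44e-07). Both genes were fully separated, in opposite directions. Sod1, Prdx3 and Gpx4, which remove superoxide and peroxides, fell by 0.48, 0.49 and 0.39. Of 24 genes of the integrated stress and unfolded protein responses 15 were higher and 2 lower. Mthfd2, a mitochondrial folate enzyme, rose by 1.86. Ddit3, the stress factor CHOP, was at 9.87, 11.99, 11.1 and 9.86 FPKM in AAV-FGF17 infarcts and 19.8, 19.98, 21.9 and 20.9 FPKM in sham hearts (log2 change -0.92 ± 0.08 (SE), adjusted p = 4.51e-08), and Dnajb9, a chaperone partner in the endoplasmic reticulum, fell by 0.77. Of 15 circadian clock genes 7 were lower and 0 higher, and Nr1d1, the clock repressor REV-ERB alpha, was at 9.85, 12.4, 12.6 and 8.27 FPKM in AAV-FGF17 infarcts and 29.2, 31.6, 25.6 and 38.6 FPKM in sham hearts (log2 change -1.50 ± 0.15 (SE), adjusted p = 2.86e-07); the hour at which hearts were taken is not given, and its part in these values was not tested.

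Vessel markers were mixed. Of 19 endothelial markers 7 were called higher and 1 lower, with a median of 0.20, but 3 were higher and 5 lower under median-of-ratios scaling. With FPKM as deposited, 43.1% of all genes were higher and 13.1% lower, with a median of 0.23, so this list did not stand apart from them. Apln, a peptide of growing tip endothelium, was at 24.1, 12.8, 18.6 and 21.7 FPKM in AAV-FGF17 infarcts and 1.42, 0.767, 1.43 and 1.901 FPKM in sham hearts (log2 change 3.40 ± 0.21 (SE), adjusted p = 8.11e-10). Kdr, the main receptor for vascular endothelial growth factor, had 25.4, 24.1, 29.2 and 25.8 FPKM in AAV-FGF17 infarcts and 25.6, 21.4, 27.7 and 22.04 FPKM in sham hearts (adjusted p = 0.274). Pecam1, a junction protein of all endothelium, was called higher by 0.32 with FPKM as deposited; its libraries overlapped and the call was lost under median-of-ratios scaling (0.04, adjusted p = 0.739) and without the mitochondrially encoded genes (adjusted p = 0.0917). Tek, the angiopoietin receptor, fell by 0.37. Of 7 pericyte markers 4 were called lower and 1 higher: Rgs5, a regulator of G protein signalling in pericytes, was at 121, 123, 141 and 121 FPKM in AAV-FGF17 infarcts and 266, 237, 207 and 213 FPKM in sham hearts (log2 change -0.86 ± 0.11 (SE), adjusted p = 4.93e-06), and Pdgfrb, their growth factor receptor, rose by 0.53 (adjusted p = 0.126 under median-of-ratios scaling). Of 6 smooth muscle markers 1 was lower, Myh11, at -0.74. Among lymphatic markers Pdpn rose by 2.33 and Prox1 fell by 0.62; Prox1 is also made by cardiomyocytes and Pdpn by fibroblasts and macrophages.

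Markers of other tissues were checked. Neither of the 2 lung epithelial markers in the table passed the filter, and their summed share was 0% of FPKM in every AAV-FGF17 infarct and at most 0.00134% in sham hearts. Of 7 adipocyte markers 2 were lower and 0 higher; 5 were lower under median-of-ratios scaling, 4 under each of the other scalings and in a fit of the compared groups alone, and 1 to 3 with 1 library left out. Their sum was 0.00369 to 0.00651% of all FPKM in AAV-FGF17 infarcts and 0.0061 to 0.0152% in sham hearts. Adipoq, the hormone adiponectin of fat cells, had 1.39, 3.51, 2.89 and 2.604 FPKM in AAV-FGF17 infarcts and 2.995, 3.70, 7.48 and 4.45 FPKM in sham hearts (adjusted p = 0.172); Ucp1 is on this list, and the part of fat tissue on the samples in its fall was not tested. Of 7 fast skeletal muscle markers 1 was higher (Tnnt3, by 1.85) and 1 lower (Atp2a1, which fell by 0.86 and was under 1 FPKM in every library of both groups). Wt1 of 6 mesothelial markers fell by 0.64, but lost the call without AAV-FGF17 library 4 (adjusted p = 0.0511) or sham library 1 (0.0692). Mbp of 2 Schwann cell markers rose by 0.43 (adjusted p = 0.0731 under median-of-ratios scaling). Among 4 tested Y-linked genes Ddx3y fell by 0.40 and 3 were not called.

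Globin transcripts held the largest gains in FPKM. Hbb-bs, the adult beta globin (chr7:103826534-103828096), was at 2495, 1992, 1808 and 3165 FPKM in AAV-FGF17 infarcts and 1397, 1541, 689 and 1453 FPKM in sham hearts (log2 change 0.93 ± 0.35 (SE), adjusted p = 0.0298). Hba-a2, an alpha globin, was at 1930, 1330, 1350 and 2146 FPKM in AAV-FGF17 infarcts and 901, 1101, 450.2 and 993 FPKM in sham hearts (log2 change 1.02 ± 0.37 (SE), adjusted p = 0.0281). The groups did not overlap, but sham library 4 was the lowest in both. For Hbb-bs and Hba-a2 the call was lost without AAV-FGF17 library 1, AAV-FGF17 library 4 or sham library 4, with adjusted p between 0.0619 and 0.115. Of 7 erythroid markers 5 were called higher and 0 lower, with a median of 0.93. Under median-of-ratios scaling 0 were called by limma, and leaving out 1 library gave between 0 and 6 calls. Globin genes are near-identical within the alpha and the beta pairs, so reads may be split between them, and the amount of blood left in each heart was not tested. The protein synthesis factor Eef1a1 was also among the 6 largest gains, at 928, 951, 886 and 921 FPKM in AAV-FGF17 infarcts and 417, 416, 372 and 394 FPKM in sham hearts (log2 change 1.21 ± 0.09 (SE), adjusted p = 3.03e-09).

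**Figure D3:**
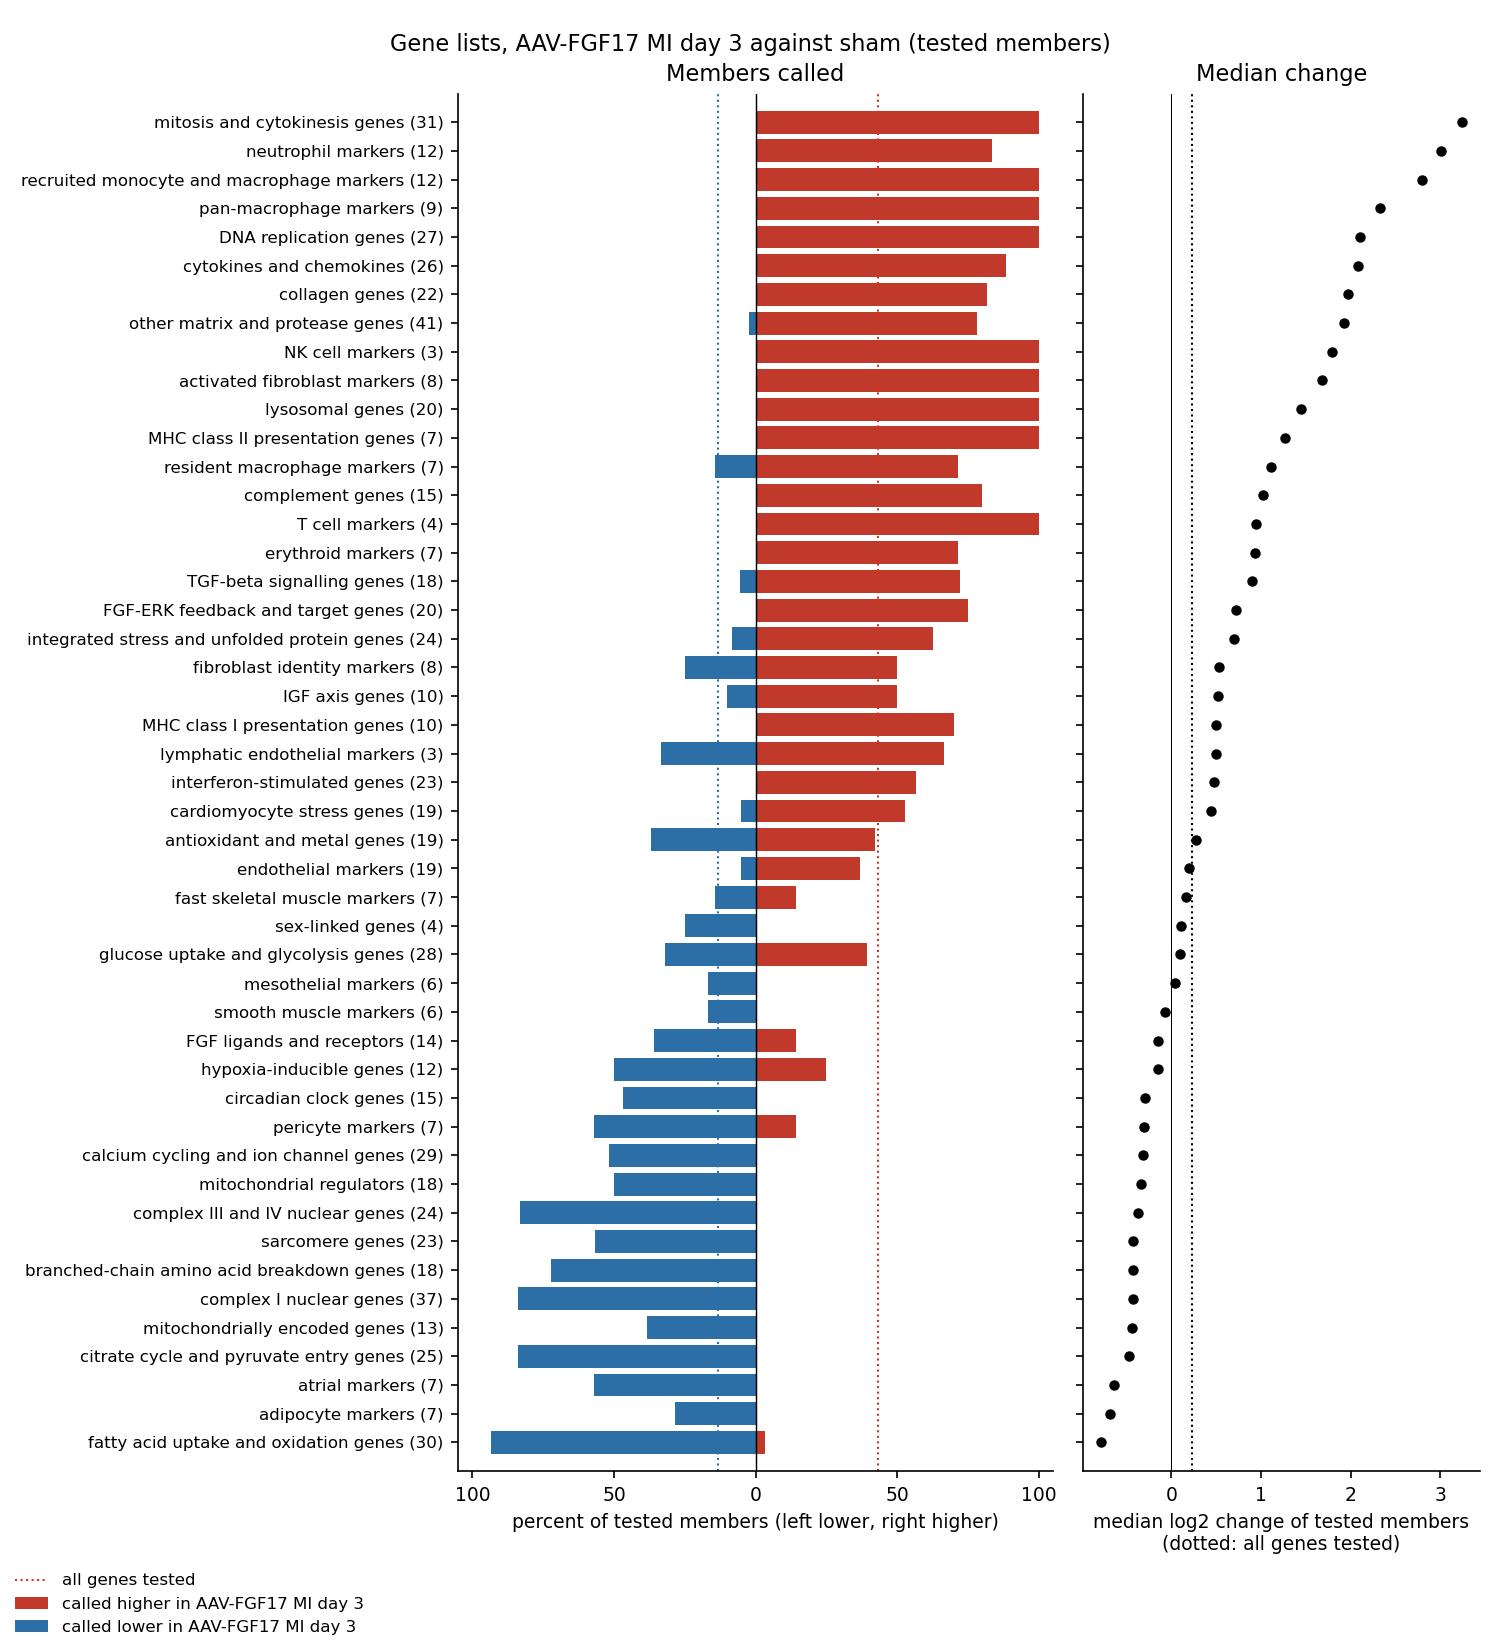
For each gene list with 3 or more tested members (number in brackets), the left panel gives the percent of tested members called higher (red, to the right) and lower (blue, to the left) in AAV-FGF17 MI day 3 against sham, and the right panel the median log2 change. Dotted lines mark all 12052 genes (43.1% higher, 13.1% lower, median 0.23); mitosis genes stand at the top with a median of 3.24 and fatty acid genes at the bottom with -0.78.

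**Figure D4:**
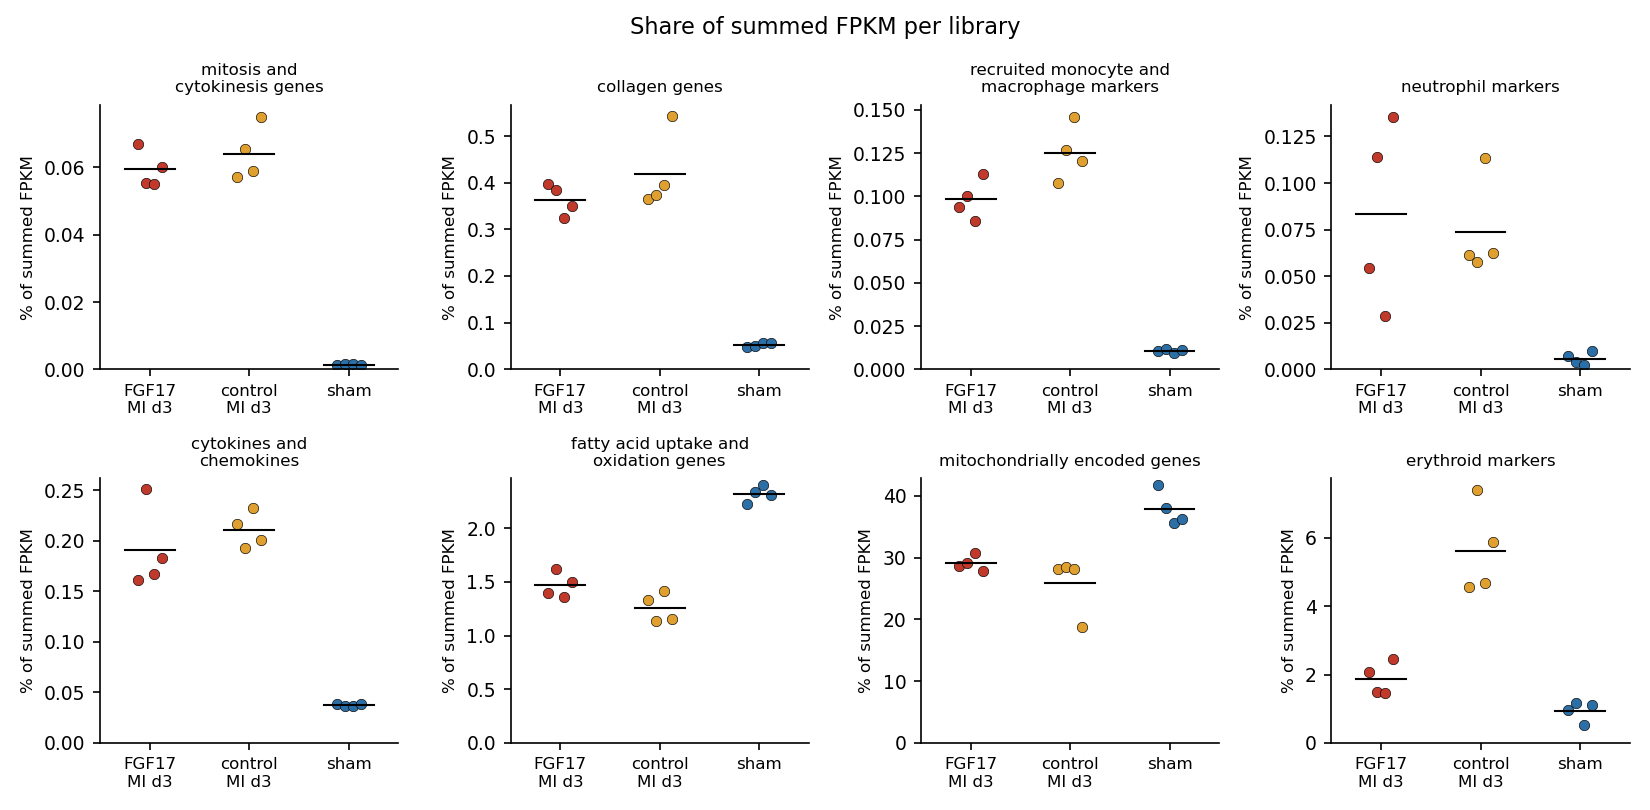
Summed FPKM of 8 gene lists as a percent of all FPKM per library, AAV-FGF17 MI day 3 in red, control vector MI day 3 in orange and sham in blue; bars mark group means and each axis starts at 0. Infarcts of both vectors stand apart from sham in each panel, and in the erythroid panel the AAV-FGF17 infarcts (1.45 to 2.45%) lie between control-vector infarcts (4.56 to 7.40%) and sham hearts (0.519 to 1.15%).

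The test between the vectors compares the AAV-FGF17 infarcts with the control-vector infarcts. No sham library enters the difference, but the variance behind its p-values was estimated over all 18 libraries. It called 28 of 12052 genes, 7 higher (0.0581%) and 21 lower (0.174%) in AAV-FGF17 infarcts. In all 28 the libraries of the infarct groups did not overlap. These genes were picked for their difference between the same libraries, so the lack of overlap adds no support. Of these, 8 stayed called when any 1 of the 8 day 3 libraries was left out, and 6 of those also under the 9 or 10 other settings that could be tried for each gene, among them Fgf17, Apol11b, Car2, Rsad2 and Trim10. Among the day 3 and sham groups, Fgf17, Apol11b and Trim10 reached 1 FPKM in 3 libraries only in the group where they were high. Their calls, and the stability of these calls, are therefore a description. H2-Q6 and Slc4a1 lost the call under other settings, and the other 20 genes lost it without at least 1 library. Without control-vector library 2, 1 gene was higher and 8 were lower, and without control-vector library 4, the one with the low mitochondrial share, 1 was higher and 9 were lower. Without AAV-FGF17 library 3, 2 were higher and 13 lower, and without AAV-FGF17 library 4, 5 were higher and 13 lower. The 3 other scalings each gave 5 higher, with 11 to 17 lower, and a fit of the compared groups alone gave 4 higher and 15 lower. In that fit Isg15, Ifi44, Oas1a, Ppargc1a, Dusp18, Slc4a1 and H2-Q6 were among the genes that lost the call, with adjusted p of 0.181, 0.148, 0.101, 0.0874, 0.0873, 0.0793 and 0.0684.

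Several antiviral interferon genes were lower with AAV-FGF17. Of 23 tested interferon-stimulated genes 4 were called lower and 0 higher against control-vector infarcts, with a median difference of -0.64, against -0.03 for all genes. Over all genes 0.174% were called lower and 0.0581% higher. The list was chosen with earlier results of these data known, so its count and median are a description. Against sham 13 of them were called higher and 0 lower with a median of 0.48; under median-of-ratios scaling 8 were higher and 1 was lower. The control-vector infarcts, set beside the same sham hearts, had a median change of 1.22. Rsad2, the antiviral protein viperin (chr12:26442746-26456452), was at 12.8, 12.4, 12.7 and 9.49 FPKM in AAV-FGF17 infarcts, 18.6, 30.4, 28.7 and 26.1 FPKM in control-vector infarcts and 11.4, 11.4, 11.1 and 14.2 FPKM in sham hearts. Its difference between the vectors was -1.08 ± 0.16 (SE, adjusted p = 0.00838), and its level in AAV-FGF17 infarcts overlapped the sham range. Isg15, a ubiquitin-like modifier induced by interferon (chr4:156199424-156200818), was at 24.4, 25.4, 24.00 and 16.98 FPKM in AAV-FGF17 infarcts, 31.6, 45.95, 53.8 and 78.5 FPKM in control-vector infarcts and 9.12, 7.59, 9.19 and 7.61 FPKM in sham hearts (difference between vectors -1.13 ± 0.22, adjusted p = 0.0435). It lay between the other groups, and the call was lost without 7 of the 8 day 3 libraries in turn, with adjusted p up to 0.134, and under all 3 other scalings, with adjusted p of 0.054 to 0.0622. Oas1a, which makes the second messenger of RNase L, had 10.6, 8.88, 9.48 and 6.21 FPKM in AAV-FGF17 infarcts, 14.5, 15.6, 15.8 and 19.9 FPKM in control-vector infarcts and 2.07, 2.08, 2.49 and 2.26 FPKM in sham hearts (difference -0.88 ± 0.15, adjusted p = 0.0163). Ifi44, an interferon-induced gene, had 2.29, 2.22, 2.26 and 1.36 FPKM in AAV-FGF17 infarcts, 4.03, 4.71, 4.59 and 2.98 FPKM in control-vector infarcts and 1.75, 1.26, 1.31 and 0.958 FPKM in sham hearts (difference -0.86 ± 0.17, adjusted p = 0.0434), and lost the call without 7 of the 8 libraries in turn, under median-of-ratios scaling (adjusted p = 0.0842) and without the mitochondrially encoded genes (0.103). Zbp1, a sensor of Z-form nucleic acids, rose over sham by 2.03 and differed between the vectors by -0.57 (adjusted p = 0.267).

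Related genes outside this list were among the 21, and some of them were named after their values were seen. Isg20, an antiviral exonuclease, had 6.97, 6.44, 7.11 and 8.46 FPKM in AAV-FGF17 infarcts, 14.9, 16.9, 18.4 and 22.97 FPKM in control-vector infarcts and 4.27, 2.78, 2.61 and 3.68 FPKM in sham hearts (difference -1.27 ± 0.22, adjusted p = 0.0163). Eif2ak2, the RNA-activated kinase PKR, Ddx58, the RNA sensor RIG-I, Oas1g, a close copy of Oas1a that may share its reads, and Trim5, an antiviral factor, differed by -0.56, -0.49, -0.86 and -0.72. Each of these 4 calls was lost under at least 1 of the 3 other scalings. H2-Q6, a class Ib histocompatibility gene with close copies that share reads, had 7.79, 13.8, 8.07 and 8.75 FPKM in AAV-FGF17 infarcts, 19.2, 20.9, 27.5 and 33.5 FPKM in control-vector infarcts and 12.1, 12.7, 15.2 and 13.2 FPKM in sham hearts (difference -1.35 ± 0.20, adjusted p = 0.00838). Apol11b, an apolipoprotein L gene, showed the largest difference among the lower genes, at 0.742, 0.833, 1.52 and 0.971 FPKM in AAV-FGF17 infarcts, 8.58, 18.9, 20.9 and 9.98 FPKM in control-vector infarcts and 0.197, 0.789, 0.0924 and 0.494 FPKM in sham hearts (-3.24 ± 0.36, adjusted p = 5.40e-04). Rnase6, a ribonuclease of monocytes and macrophages, differed by -0.84, a call lost after rescaling to a common total. Among the day 3 and sham groups, Apol11b and Rnase6 reached 1 FPKM in 3 libraries only in control-vector infarcts, so their differences are a description.

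The interferon response element is shown because several of these genes carry it before their start. Interferon-activated transcription factors bind an element of repeated GAAA letters, searched here as GAAANNGAA. It stood in 8 of 19 promoters of interferon-stimulated genes (42.1%; 17 of 23 genes had an entry), against 6.53% of all promoters. Stretches around the matches follow for Rsad2, Isg15, Oas1a and Trim5, 5′ to 3′ on the strand of the gene, with the matches of either strand in capitals; overlapping matches run together. The same letters stood before Ppargc1a and Lepr, which were higher with AAV-FGF17.
Rsad2, chr12:26456538-26456597, minus strand: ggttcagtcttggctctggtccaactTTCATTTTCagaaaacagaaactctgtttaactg
Isg15, chr4:156200857-156200916, minus strand: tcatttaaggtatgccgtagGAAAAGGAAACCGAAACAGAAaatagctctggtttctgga
Oas1a, chr5:120907526-120907585, minus strand: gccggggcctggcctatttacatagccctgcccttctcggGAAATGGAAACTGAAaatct
Trim5, chr7:104288121-104288180, minus strand: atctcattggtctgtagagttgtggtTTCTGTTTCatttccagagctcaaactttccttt

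Several red cell genes were lower in AAV-FGF17 infarcts than in control-vector infarcts. Of 7 erythroid markers 2 were called lower, with a median difference of -1.68. Both were too low in sham hearts to pass the filter there, so this count is a description. Slc4a1, the anion exchanger of red cells, had 0.378, 0.0514, 0.78 and 0.497 FPKM in AAV-FGF17 infarcts, 1.52, 3.05, 2.699 and 1.81 FPKM in control-vector infarcts and 0.185, 0.276, 0.0855 and 0.0766 FPKM in sham hearts (difference -1.60 ± 0.24, adjusted p = 0.00838). The 5 globin and heme genes of the list were not called between the vectors: for Hbb-bs the difference of -1.68 ± 0.35 had an adjusted p of 0.054, although the libraries of the infarct groups did not overlap. Bpgm, the enzyme that sets oxygen affinity of red cells, had 17.4, 12.4, 15.7 and 19.8 FPKM in AAV-FGF17 infarcts, 41.3, 77.3, 44.5 and 45.8 FPKM in control-vector infarcts and 9.002, 12.9, 8.61 and 11.98 FPKM in sham hearts (difference -1.62 ± 0.28, adjusted p = 0.0163). Car2, a carbonic anhydrase of red cells and other cells, was at 3.395, 1.98, 3.401 and 2.797 FPKM in AAV-FGF17 infarcts, 6.14, 10.8, 8.96 and 7.99 FPKM in control-vector infarcts and 3.78, 4.17, 3.79 and 3.36 FPKM in sham hearts (difference -1.40 ± 0.19, adjusted p = 0.00611). Trim10, known for its role in red cell maturation in mice, and Fam46c, a poly(A) polymerase, differed by -1.83 and -1.66. Slc4a1 and Trim10 were under 1 FPKM in every AAV-FGF17 infarct and sham heart. Among these groups they reached the level of the filter only in control-vector infarcts. Without the mitochondrially encoded genes Slc4a1 and Fam46c lost the call (adjusted p = 0.0596 and 0.0529). For Slc4a1, Bpgm and Car2 the AAV-FGF17 libraries overlapped the sham range, and red cell content was not measured in another way.

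Few genes were higher with AAV-FGF17 beyond Fgf17 itself. Ppargc1a was at 35.1, 48.5, 29.6 and 52.4 FPKM in AAV-FGF17 infarcts, 15.9, 23.1, 16.1 and 11.7 FPKM in control-vector infarcts and 27.98, 53.8, 25.4 and 30.9 FPKM in sham hearts (difference between vectors 1.29 ± 0.25, adjusted p = 0.0435). Levels in AAV-FGF17 infarcts lay within the sham range, and those in control-vector infarcts lay below both. The call was lost without 7 of the 8 day 3 libraries in turn and under 4 of 10 other settings, median-of-ratios scaling among them, with adjusted p up to 0.149. No other mitochondrial regulator and 0 of the 30 fatty acid, 25 citrate cycle, 37 complex I and 24 complex III and IV genes were called between the vectors by limma; their median differences were 0.12 for regulators, 0.18 for fatty acid genes, 0.15 for the citrate cycle, 0.13 for complex I and 0.12 for complexes III and IV, against -0.03 for all genes. Tmem100, an endothelial membrane protein, had 26.9, 25.9, 34.8 and 25.5 FPKM in AAV-FGF17 infarcts, 14.8, 15.8, 16.9 and 12.9 FPKM in control-vector infarcts and 18.1, 29.8, 21.4 and 22.7 FPKM in sham hearts (difference 0.88 ± 0.15, adjusted p = 0.0163). Dusp18, a dual-specificity phosphatase, had 11.1, 13.6, 13.5 and 12.6 FPKM in AAV-FGF17 infarcts, 8.35, 6.85, 9.29 and 6.74 FPKM in control-vector infarcts and 12.7, 16.3, 13.2 and 13.5 FPKM in sham hearts (difference 0.67 ± 0.11, adjusted p = 0.0163). Cish, a feedback inhibitor of cytokine signalling, and Lepr, the leptin receptor, differed by 0.80 and 0.79; both calls were lost after rescaling to a common total and without the mitochondrially encoded genes. Lepr also rose over sham, by 1.03, to 2.197, 2.12, 2.84 and 2.77 FPKM, against 1.19, 1.04, 1.52 and 1.15 FPKM in control-vector infarcts and 0.846, 1.03, 0.72 and 1.27 FPKM in sham hearts.

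Some genes were lower with AAV-FGF17 than in either other group. Dach1, a transcription factor of endothelium and other cells, was at 1.19, 1.25, 1.65 and 1.38 FPKM in AAV-FGF17 infarcts, 2.604, 2.57, 2.29 and 2.22 FPKM in control-vector infarcts and 2.33, 2.43, 2.11 and 2.95 FPKM in sham hearts (difference -0.65 ± 0.12, adjusted p = 0.024). Fam213a, a redox protein, differed by -0.68 and fell against sham by 0.83. The transcription factor Zfp521 differed by -0.51 and overlapped the sham range. The remaining gene, 6030408B16Rik, was higher with AAV-FGF17, by 1.03. Among the day 3 and sham groups it reached 1 FPKM in 3 libraries only in AAV-FGF17 infarcts.

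**Figure D5:**
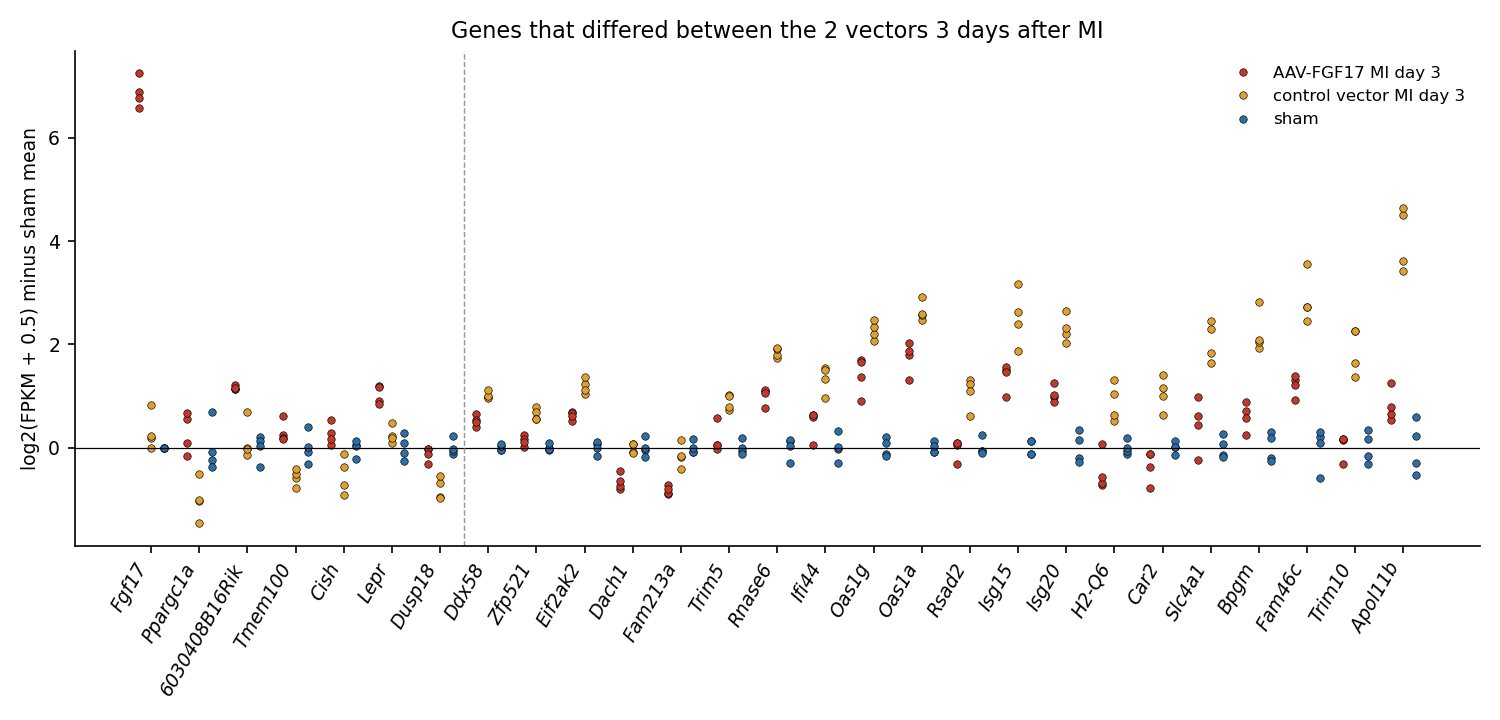
Log2(FPKM + 0.5) minus the sham mean per library for 27 of the 28 genes that differed between the vectors 3 days after MI, AAV-FGF17 in red, control vector in orange and sham in blue, ordered by the difference. The 7 genes left of the dashed line are higher with AAV-FGF17 and the 20 right of it lower; for most of the 20 the orange points lie highest and the red points near or above the blue ones.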

How the data were processed

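The deposited table gives FPKM values per gene for 18 libraries in 5 groups; the authors' upstream steps, per the submitters' processing notes, used FastQC 0.11.7, cutadapt 1.17, HISAT2 2.1.0 and StringTie 1.3.3 with GRCm38, and per the labels RNA was taken up in Trizol. The FPKM values were used as deposited, with no further scaling. They are not whole multiples of 1 read, so counts were not recovered and the depth of each library is unknown. Columns were assigned to groups by name, and 0 columns were left unmapped.

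Genes with at least 1 FPKM in 3 libraries were kept, and log2(FPKM + 0.5) was fitted with 5 group means over all 18 libraries in limma 3.58.1 under R 4.3.3 (eBayes with trend, Benjamini-Hochberg adjustment over all tested genes, threshold 0.05). The code was checked on simulated data. For Fgf17 an exact two-sided permutation test was used. Named genes were the 10 largest rises and 10 largest falls of called genes with a mean of at least 5 FPKM in 1 group and no overlap of libraries, a panel of genes, the called list members with the smallest p or moving against their list, the 6 largest gains and 6 largest losses in FPKM, and the genes called between the vectors. The lists and the genes were chosen with earlier results of these data known. Alternatives were the pseudocount, the filter, 3 other scalings, a fit of the compared groups alone, robust eBayes, a replicate block and each library left out. Promoters came from RefSeq (GRCm38.p6), with 9375 of 12041 tested symbols matched. A few genes that these rules name are not reported here.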

Additional observations from a re-analysis of the deposited data

Results flagged for a closer look

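In 18 of 316 sets of 4 libraries examined (5.7%), 1 library stood farther from the other 3 than Dixon's 95% critical value allows, and chance alone gives about 1 in 20. Among AAV-FGF17 infarcts, library 4 was set apart in 5 sets, library 3 in 4, library 2 in 3 and library 1 in 0. Among sham hearts, libraries 1 and 2 were set apart in 2 sets each and libraries 4 and 5 in 1 each.

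Library 2 of the AAV-FGF17 infarcts was high for Saa3 (167.7 FPKM, others 15.8 to 24.8), for H2-Q6 (13.83 FPKM, others 7.79 to 8.75) and for Pnpla2 (61.03 FPKM, others 39.2 to 41.9). Library 3 was high for Cyp1a1 (0.5041 FPKM, others 0.237 to 0.280), Rgs5 (140.7 FPKM, others 121 to 123) and Tmem100 (34.79 FPKM, others 25.5 to 26.9), and low for Pdk4 (128.8 FPKM, others 255 to 279). Library 4 was low for the interferon-stimulated genes Isg15 (16.98 FPKM, others 24.0 to 25.4), Ifi44 (1.363 FPKM, others 2.22 to 2.29) and Rsad2 (9.489 FPKM, others 12.4 to 12.8). It was high for Pygm (128.6 FPKM, others 113 to 115) and Tgfb1 (11.15 FPKM, others 10.1 to 10.2).

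Among sham hearts, library 1 was high for Cthrc1 (0.5182 FPKM, others 0.0789 to 0.122) and low for Egln1 (100.1 FPKM, others 109 to 111). Library 2 was high for Spp1 (4.08 FPKM, others 1.78 to 2.05) and low for Ccl2 (4.94 FPKM, others 7.28 to 7.49). Library 4 was low for Hbb-bs (688.6 FPKM, others 1397 to 1541), and library 5 was high for Rsad2 (14.16 FPKM, others 11.1 to 11.4).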

How the results depend on the processing

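Against sham, 5197 genes were called higher and 1579 lower in AAV-FGF17 infarcts. A filter of 5 FPKM, which leaves 7269 genes to test, gave 3091 higher and 1284 lower. Scaling by median ratios left 3414 calls above and 3305 below sham; the cause was not tested. Leaving out 1 library gave 4806 to 5044 higher and 1356 to 1599 lower. Between the vectors, 7 genes were higher and 21 lower. The count of higher genes was 4 with a filter of 5 FPKM, 4 in a fit of the compared groups alone and 4 with a pseudocount of 0.1, and that of lower genes was 11 without the mitochondrially encoded genes; the cause was not tested. Leaving out 1 library gave 1 to 8 higher and 8 to 28 lower. With the replicate number as a block the counts were 4961 higher and 1409 lower against sham, and 5 higher and 20 lower between the vectors. The numbers share no sign of pairing: same-numbered libraries correlated in their deviations from the group means at 0.0146, -0.0192 and 0.0741 for sham and between -0.0998 and -0.0189 for control-vector infarcts. Fgf17 kept its exact permutation p of 0.0286 with pseudocounts of 0.1 and 1, which could not change it because the groups were fully separated. Depth is unknown, so no counting error can be given for low FPKM values.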
